A study of Sus scrofa with 24 samples.

Results

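The miR-143 and miR-145 cluster was described here across the 8 groups of a small RNA sequencing study of pig adipocyte differentiation. Its members were all rows of the deposited expression table that carry the name ssc-miR-143 or ssc-miR-145 with any arm suffix. These were 4 of the 1587 entries, namely ssc-miR-143-5p, ssc-miR-143-3p, ssc-miR-145-5p and ssc-miR-145-3p. All 4 passed the filter on low values (a mean of at least 1 TPM), as did 430 entries in all. The cells were primary preadipocytes from six-day-old Yorkshire piglets, taken from back subcutaneous fat (BF) or, for the intramuscular source (IMF), from the longissimus dorsi muscle. Both were grown until nearly confluent, induced with 3-isobutyl-1-methylxanthine, dexamethasone and insulin for 2 days, kept in insulin until day 4 and then returned to growth medium. Libraries came from days 0, 2, 4 and 8, giving the groups BF-0d, BF-2d, BF-4d, BF-8d, IMF-0d, IMF-2d, IMF-4d and IMF-8d, with 3 libraries each and 24 in all. All groups carried the same breed and age, and day 0 was the state before induction. The paper took cells from 3 piglets, and the labels do not say whether each library of a group came from a different one. The p-values therefore measure the spread between these libraries. The cells were a primary isolate, which can hold other cells of the tissue.

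MicroRNAs are short RNAs cut from a hairpin, whose left (5p) and right (3p) arms can each be loaded into the silencing complex. Bases 2 to 8 of the loaded strand form the seed, which pairs with target mRNAs. The hairpins of miR-143 and miR-145 lie side by side and are known to be cut from a shared primary transcript. The pair is known for its high levels in smooth muscle cells and fibroblasts, where serum response factor and TGF-beta signalling drive it. In adipocytes, miR-143 is known as a promoter of differentiation, with the kinase ERK5 among its targets, and miR-145 is known as an inhibitor of preadipocyte differentiation, with the insulin receptor substrate IRS1 among its targets.

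The mature sequences are shown because the rest of the description compares these 4 RNAs, with the seed in capitals and each written 5′ to 3′.

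ssc-miR-143-5p: gGUGCAGUgcugcaucucugg

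ssc-miR-143-3p: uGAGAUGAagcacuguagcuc

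ssc-miR-145-5p: gUCCAGUUuucccaggaaucccuu

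ssc-miR-145-3p: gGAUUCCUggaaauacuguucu

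The seeds of the 4 arms all differed. No other entry among the 958 with a mature sequence in the study's table shared a seed with any of them. Each mature sequence occurred once in the Sscrofa11.1 genome when both strands were searched, so reads mapped without mismatches to these arms had 1 place to go. The sequences in the study's table and in the genome were the same for all 4 arms.

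The hairpins are shown with both arms in capitals, to place the arms that were counted on the RNA they were cut from.

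MIR143: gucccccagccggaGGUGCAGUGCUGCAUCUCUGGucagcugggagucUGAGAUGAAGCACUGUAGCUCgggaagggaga

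MIR145: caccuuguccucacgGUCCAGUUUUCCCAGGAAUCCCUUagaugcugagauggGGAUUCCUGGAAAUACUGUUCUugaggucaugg

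In RefSeq's annotation of Sscrofa11.1, MIR143 covers chr2:150578738-150578817 and MIR145 covers chr2:150580126-150580211, both on the plus strand. They are 80 and 86 bases long, with 1308 bases between them. The loop between the arms has 13 bases in MIR143 and 14 in MIR145. Both hairpins lie inside the bounds of IL17B, a cytokine gene on the minus strand, and overlap no annotated exon of another gene, which makes them intronic to that gene on its opposite strand. On their own strand, the uncharacterized protein-coding gene LOC100514340 ends 537 bases before MIR143. The next gene downstream is CSNK1A1, which encodes casein kinase 1 alpha, 32634 bases from MIR145 on the minus strand. The map of the locus places all of these on 1 scale.

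**Figure D1:**
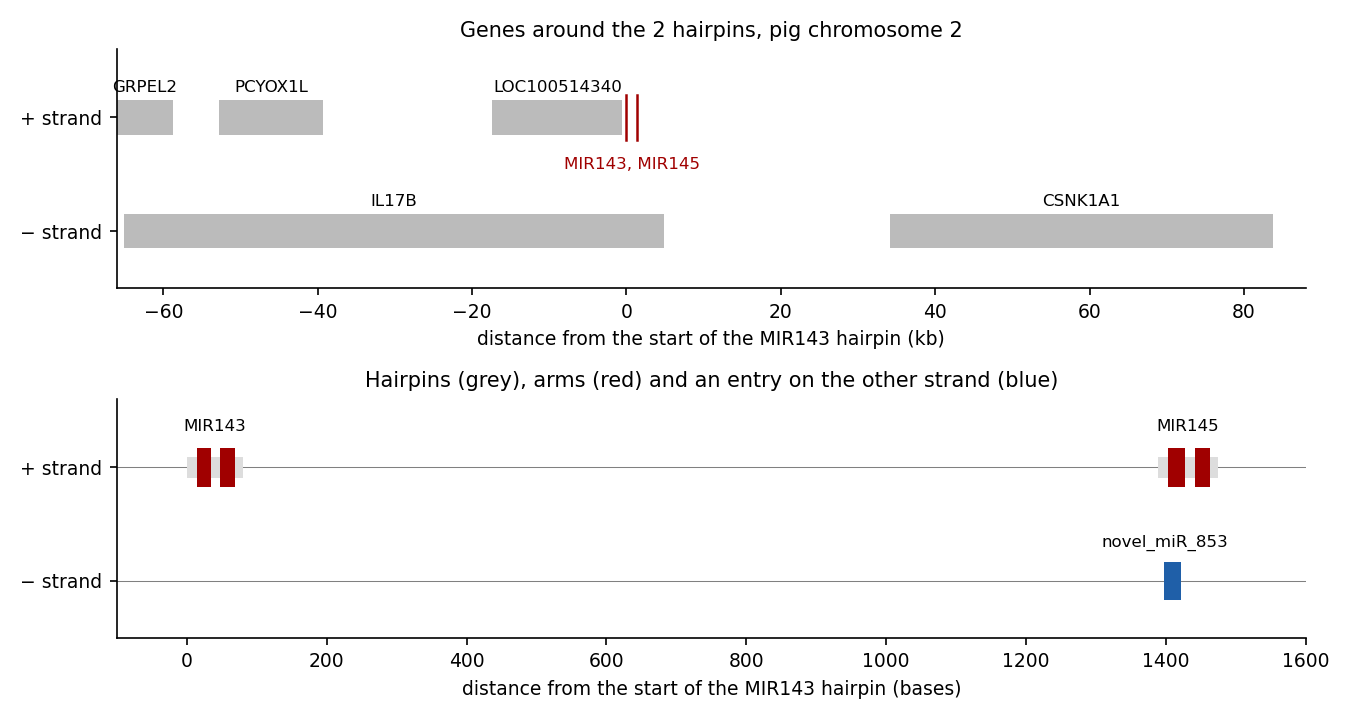
Map of the locus on pig chromosome 2, with distance from the start of the MIR143 hairpin in kb (top) and in bases (bottom) and the 2 strands on separate rows. Grey bars are genes (top) or hairpins (bottom), red marks are the hairpins or their arms, and the blue bar is novel_miR_853, a predicted entry on the other strand of MIR145. The 2 hairpins are 1308 bases apart and lie within the bounds of IL17B.

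Libraries held from 4954845 to 16863560 reads on miRNAs, with a median of 10614384. TPM here means reads per 1000000 reads on the listed miRNAs of a library, with no length term. A floor of 3 reads equals 0.178 to 0.605 TPM. The lowest level of any member, 22.6 TPM of ssc-miR-145-3p in BF-8d replicate 1, rested on 290 reads, and no member came near the floor in any library. Reads were counted without molecular identifiers, so this floor covers counting error only. Among the marker lists, the summed level of 7 skeletal muscle miRNAs ranged over the groups from 475 to 2362 TPM and was mostly ssc-miR-1. The 2 endothelial markers summed to 18.2 to 90.9 TPM, the 7 blood markers to at most 8.08 TPM and the 4 epithelial markers to at most 1.90 TPM.

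Most reads of the cluster were ssc-miR-143-3p. This arm alone held between 4.48% and 9.67% of a library's reads and ranked 3rd or 4th among all entries in every library. It made up 97.2% to 99.3% of the reads of the cluster. The major arm of the other hairpin, ssc-miR-145-5p, ranked between 20 and 62. The minor arms ssc-miR-143-5p and ssc-miR-145-3p stayed at 31.6 to 143.5 TPM and 22.6 to 117 TPM. Adapter ligation differs between small RNA sequences, so ratios between arms are given here as ratios of reads and not of molecules.

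The level of ssc-miR-143-3p, the pro-adipogenic arm, was read first. In BF it was 74431, 84467 and 78038 TPM on day 0, then 82004, 83328 and 74742 on day 2. On day 4 the BF libraries gave 73966, 73639 and 53453 TPM, and on day 8 they gave 78541, 55421 and 44770. The 3 BF-8d libraries thus spread widely, with replicate 1 inside the range of day 0 and the other 2 below it.

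In IMF, ssc-miR-143-3p was 71299, 96732 and 82906 TPM on day 0 and 90035, 79268 and 77348 on day 2. It was 66540, 62729 and 83866 TPM on day 4 and 67529, 71390 and 87014 on day 8. The IMF groups overlapped on days 0 and 8. Group means ran from 83646 ± 12733 TPM (SD, n = 3) in IMF-0d, the highest, through IMF-2d, BF-2d, BF-0d, IMF-8d, IMF-4d and BF-4d to 59577 ± 17265 TPM (SD, n = 3) in BF-8d. No neighbours in this order were apart: the libraries of each pair overlapped.

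The level of ssc-miR-145-5p, the arm known to hold back preadipocyte differentiation, was 1874, 1164 and 1388 TPM in BF-0d and 959, 1198 and 1019 in BF-2d. It was 1435, 1840 and 855 TPM in BF-4d and 472, 599 and 655 in BF-8d. All 3 BF-8d libraries lay below every other library of the study, in either source.

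In IMF, ssc-miR-145-5p was 1457, 947 and 1787 TPM on day 0 and 897, 1048 and 1055 on day 2. It was 1383, 1065 and 1503 TPM on day 4 and 899, 950 and 819 on day 8. IMF-8d overlapped IMF-0d through replicate 2 of day 0. By group mean the order was BF-0d (1475 ± 363 TPM, SD, n = 3), IMF-0d, BF-4d, IMF-4d, BF-2d, IMF-2d, IMF-8d (890 ± 66.2) and BF-8d (575 ± 93.5). Only the last pair of neighbours, IMF-8d and BF-8d, did not overlap. In both sources the mean was higher on day 4 than on day 2, a step that did not pass the test in either.

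The minor arm ssc-miR-145-3p was 117, 66.6 and 74.3 TPM in BF-0d and 42.6, 48.1 and 37.3 in BF-2d. It was 49.1, 47.1 and 31.4 TPM in BF-4d and 22.6, 23.1 and 31.1 in BF-8d. In IMF it was 61.5, 46.9 and 63.0 TPM on day 0, 37.1, 43.0 and 45.7 on day 2, 49.8, 36.7 and 50.0 on day 4, and 52.7, 41.9 and 30.2 on day 8. The BF-0d libraries lay above every other library, and the range over days was wider in BF than in IMF. The group order was BF-0d (86.0 ± 27.2 TPM, SD, n = 3), IMF-0d, IMF-4d, BF-2d, BF-4d, IMF-2d, IMF-8d and BF-8d (25.6 ± 4.77), and only BF-0d and IMF-0d among the neighbours did not overlap.

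The minor arm ssc-miR-143-5p was 143.5, 64.6 and 99.0 TPM in BF-0d, 52.0, 58.7 and 47.3 in BF-2d, 91.0, 44.2 and 50.1 in BF-4d, and 31.6, 53.5 and 36.3 in BF-8d. In IMF it was 74.6, 59.2 and 94.6 TPM on day 0, 69.0, 47.7 and 63.5 on day 2, 90.9, 41.1 and 78.2 on day 4, and 75.9, 50.3 and 48.6 on day 8. All neighbours in the order from BF-0d (102 ± 39.5 TPM, SD, n = 3) to BF-8d (40.5 ± 11.6) overlapped. It was the arm with the largest coefficient of variation in several groups, up to 41.3% in BF-4d.

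**Figure D2:**
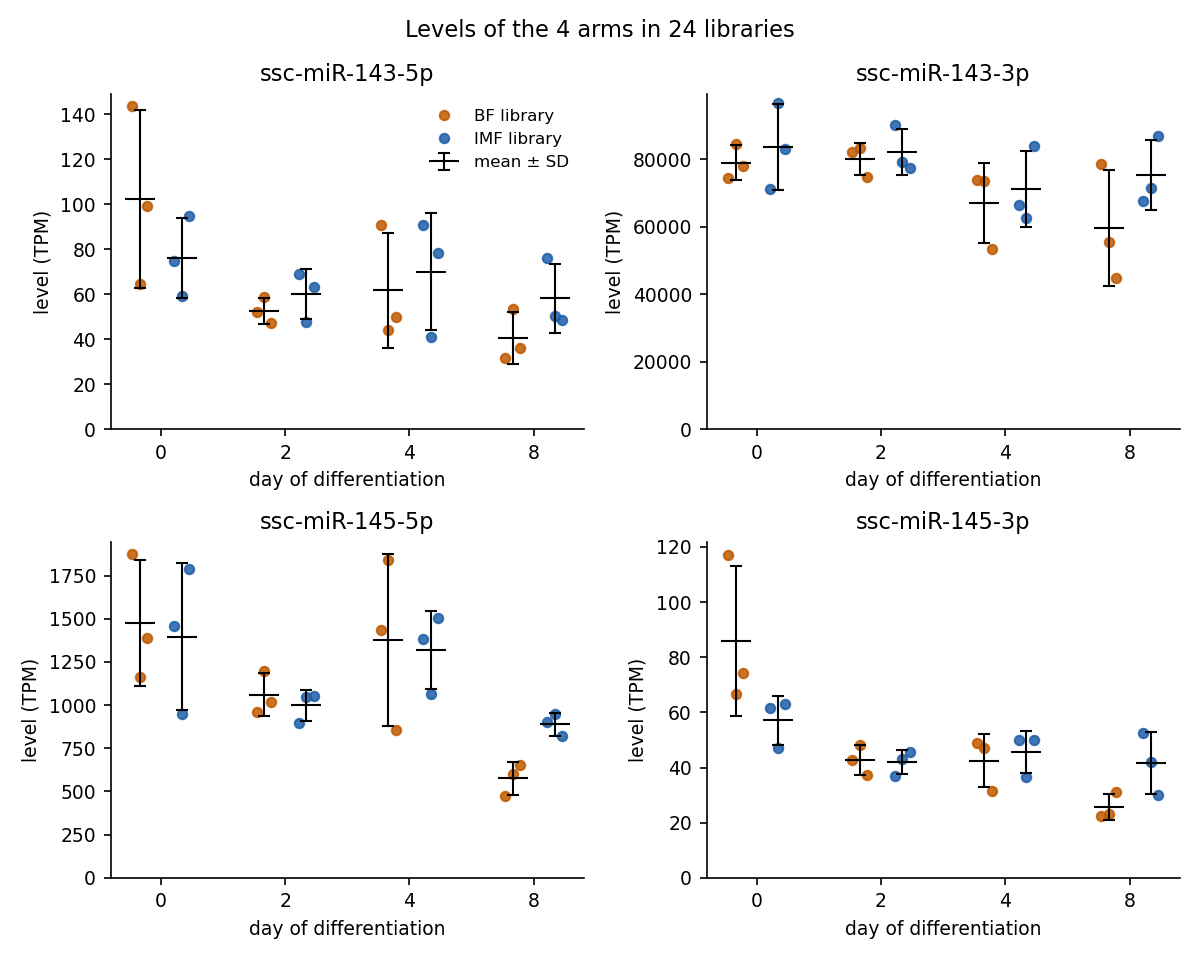
Level in TPM (vertical axes, from 0) of each of the 4 arms on days 0, 2, 4 and 8 (horizontal axes, spaced evenly), with 1 point per library for BF (orange) and IMF (blue) and black bars for the group mean ± SD (n = 3). The BF-8d points of ssc-miR-145-5p, at 472 to 655 TPM, lie below all other points of that arm, while those of ssc-miR-143-3p spread from 44770 to 78541 TPM.

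The first comparison asked how the arms changed from the start to the end of differentiation in BF. In BF, 3 of the 4 arms fell from day 0 to day 8: ssc-miR-145-3p, ssc-miR-145-5p and ssc-miR-143-5p. These are bulk cultures, in which fewer cells carrying an RNA and less of it per cell cannot be told apart. limma was run on log2(TPM + 1), the scale of every log2 fold change here. An entry was called when its p, adjusted by Benjamini-Hochberg over all tested entries, was under 0.05 and its fold change exceeded 1.5. By this rule 42.8% of the 430 entries tested were called between BF-0d and BF-8d, so a change in this comparison was common. The libraries of both days did not overlap for the same 3 arms, against 53.7% of all entries.

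The fall was steepest for ssc-miR-145-3p, with a log2 fold change of -1.68 (SE 0.24, adjusted p 2.52e-05). It was -1.34 for ssc-miR-145-5p (SE 0.21, adjusted p 8.32e-05), a 2.54-fold lower level on day 8. It was -1.28 for ssc-miR-143-5p (SE 0.27, adjusted p 0.00112), a call lost with no filter on low values (adjusted p 0.0985). The median of all tested entries was 0.15, and 120 of the called entries were higher and 64 lower. With median-of-ratios scaling the median was -0.0031, with 97 higher and 88 lower. The arm with most reads, ssc-miR-143-3p, had a log2 fold change of -0.44 with a 95% interval of -0.91 to 0.03 (adjusted p 0.115) and was not called.

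The call of ssc-miR-143-3p depended on 1 library and on the library total. Without BF-8d replicate 1 its log2 fold change was -0.66 (adjusted p 0.00238). The most abundant entry, ssc-miR-21-5p, a miRNA known from fibroblasts and tumours, took 57.2% ± 2.66 of the reads in BF-0d and 35.5% ± 6.64 in BF-8d (SD, n = 3). It was at 27.9% in BF-8d replicate 1. Taking the library total without it moved the log2 fold change of all other entries by a median of -0.57, to a median of -0.37, and 45.5% of them were then called, 56 higher and 139 lower. Under this scaling ssc-miR-143-3p stood at -1.03 (adjusted p 0.000567), so its call came with a shift that the other entries shared. As a share of the reads other than ssc-miR-21-5p, ssc-miR-143-3p was 18.5% ± 0.578 in BF-0d and 9.13% ± 1.70 in BF-8d.

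**Figure D3:**
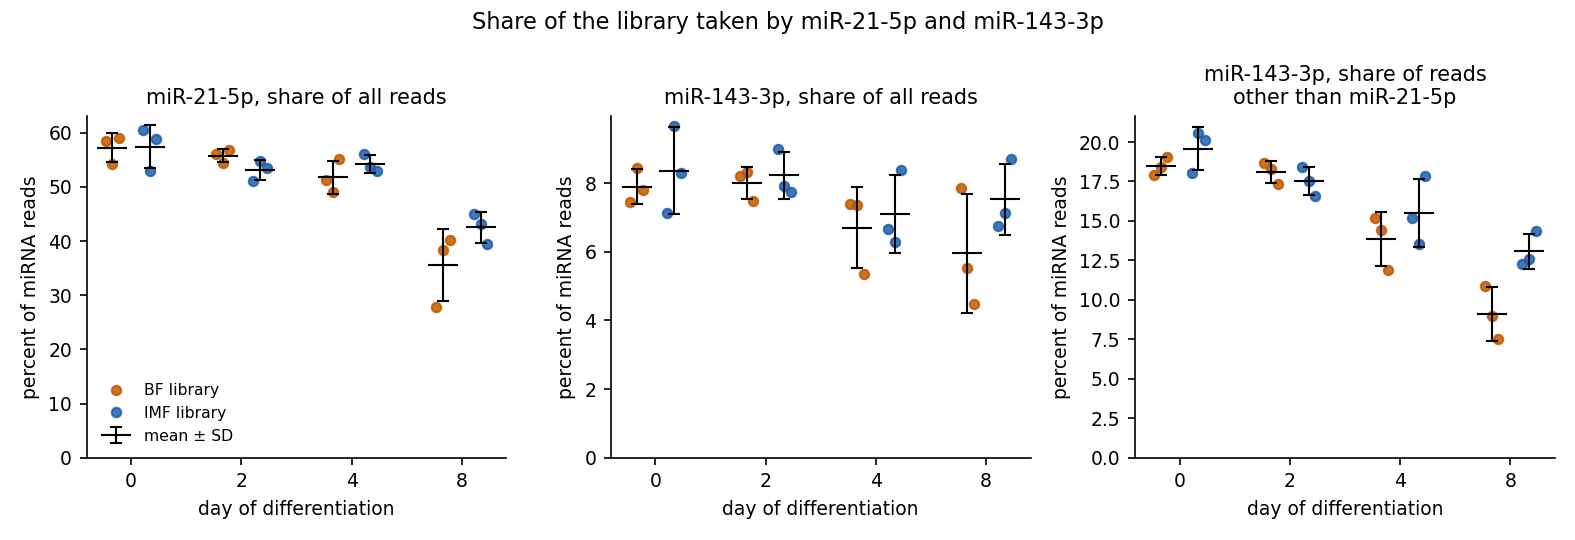
Percent of miRNA reads (vertical axes, from 0) taken by ssc-miR-21-5p (left) and ssc-miR-143-3p (middle), and the percent of the reads other than ssc-miR-21-5p taken by ssc-miR-143-3p (right), by day, with 1 point per library and black bars for mean ± SD (n = 3). ssc-miR-21-5p went from a mean of 57.2% to 35.5% in BF and from 57.4% to 42.5% in IMF between days 0 and 8, and the right panel shows the BF-8d libraries below those of the other groups.

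The same question in IMF gave no call. The log2 fold changes from IMF-0d to IMF-8d were -0.15 for ssc-miR-143-3p (SE 0.19, adjusted p 0.568) and -0.60 for ssc-miR-145-5p (SE 0.23, adjusted p 0.0857). They were -0.38 for ssc-miR-143-5p (adjusted p 0.245) and -0.47 for ssc-miR-145-3p (adjusted p 0.150). None of the 4 arms was called by limma, against 30.5% of all entries, with 1 at an unadjusted p under 0.05 and 1 each called by edgeR and DESeq2 on whole reads. That arm was ssc-miR-145-5p, at a log2 fold change of -0.75 in edgeR's quasi-likelihood test (adjusted p 0.00919). It also passed without IMF-0d replicate 2, at -0.86 (adjusted p 0.00606). Taking the total without ssc-miR-21-5p moved all other entries by a median of -0.43, to a median of -0.26, with 29.4% of them called. Under it ssc-miR-145-5p was at -1.04 (adjusted p 0.0355) and ssc-miR-143-3p at -0.58 (adjusted p 0.0451), the latter just past the fold criterion.

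Between adjacent days no arm passed the criteria in either source when only the libraries of the groups compared were fitted. Over these 6 comparisons and 4 arms, 0 of 24 tests were then called by limma, 7 had an unadjusted p under 0.05, and edgeR and DESeq2 called 4 each. One limma fit of all 24 libraries called 3, all in BF: ssc-miR-145-3p from day 0 to day 2 (-0.96, adjusted p 0.00763) and from day 4 to day 8 (-0.70, adjusted p 0.0319), and ssc-miR-145-5p from day 4 to day 8 (-1.20, adjusted p 0.000828). Fits of the groups compared also called the first of these with the 10 TPM filter (adjusted p 0.0236) and median-of-ratios scaling (adjusted p 0.0268), the second with the total without ssc-miR-21-5p (-1.12, adjusted p 0.0409) and the third with the 10 TPM filter (adjusted p 0.0346). In the same comparisons limma on the groups compared called 4.19% of all entries for BF days 0 to 2, 6.05% for BF days 2 to 4, 3.02% for BF days 4 to 8 and 13.0% for IMF days 4 to 8. It called 0 of 430 entries (0%) for IMF days 0 to 2 and for IMF days 2 to 4. At an unadjusted p under 0.05 these held 68 and 65 entries, edgeR called 7 and 1, and DESeq2 called 9 and 2.

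The steps with the lowest adjusted p were in ssc-miR-145-5p, ssc-miR-145-3p and ssc-miR-143-5p. From BF-0d to BF-2d, ssc-miR-145-3p had a log2 fold change of -0.96 (adjusted p 0.0891) and ssc-miR-143-5p one of -0.88 (adjusted p 0.133). Both had libraries that did not overlap between the days, as did 29.8% of all entries. edgeR called both, at adjusted p 0.00467 and 0.0162. From BF-4d to BF-8d, the log2 fold change was -1.20 for ssc-miR-145-5p (adjusted p 0.0541). Its libraries and those of ssc-miR-145-3p did not overlap there, as was the case for 26.5% of all entries. Without BF-4d replicate 3, which was low for this arm, the value of ssc-miR-145-5p was -1.51 (adjusted p 0.00364), and without BF-4d replicate 1 it was -1.14 (adjusted p 0.0321). From IMF-4d to IMF-8d the same arm changed by -0.55 log2 units without passing (adjusted p 0.0590), with libraries that did not overlap, like 38.4% of all entries. Without IMF-4d replicate 2 it was -0.70 (adjusted p 0.0257). edgeR called the day 4 to day 8 step of ssc-miR-145-5p in both sources, at adjusted p 0.0388 in BF and 0.00249 in IMF, and so did DESeq2 and both other scalings of the library total.

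The second question was whether the arms differed between BF and IMF on the same day. On days 0, 2 and 4, 0 of 12 tests were called by limma, edgeR or DESeq2, and none had an unadjusted p under 0.05 in limma. Of all entries, 29.3% were called on day 0, 12.3% on day 2 and 36.3% on day 4. The largest of the 12 differences was that of ssc-miR-145-3p on day 0, at -0.55 with IMF lower (SE 0.25, adjusted p 0.158). Leaving out 1 library at a time gave -0.71 to -0.31. The libraries of ssc-miR-145-3p did not overlap on day 0, as was so for 47.7% of all entries.

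On day 8, both miR-145 arms were higher in IMF. The log2 difference, IMF minus BF, was 0.64 for ssc-miR-145-5p (SE 0.17, adjusted p 0.00747), a 1.56-fold difference between 575 and 890 TPM. It was 0.66 for ssc-miR-145-3p (SE 0.23, adjusted p 0.0310), between 25.6 and 41.6 TPM. Both calls were lost with no filter on low values (adjusted p 0.0609 and 0.232). Of all entries, 37.2% were called on day 8, with 52 higher and 108 lower in IMF, and the median of all tested entries was -0.28. This split depended on the scaling: median-of-ratios scaling gave 83 higher and 64 lower with a median of -0.03, and the total without ssc-miR-21-5p gave 53 and 69 with a median of -0.17. The libraries did not overlap for ssc-miR-145-5p, as for 51.2% of all entries, and they did overlap for ssc-miR-145-3p.

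The miR-143 arms did not pass on day 8. The log2 difference was 0.52 for ssc-miR-143-5p (95% interval 0.02 to 1.02, adjusted p 0.0889) and 0.37 for ssc-miR-143-3p (95% interval -0.18 to 0.92, adjusted p 0.266). DESeq2 called both, at 0.82 and 0.62. This comparison shares its BF-8d libraries with the comparison of BF-0d and BF-8d, and single libraries decided several calls in it. Without BF-8d replicate 1, ssc-miR-145-5p dropped to 0.50, under the fold criterion, and ssc-miR-145-3p to 0.58, just under it. In that fit ssc-miR-143-3p reached 0.59 (adjusted p 0.0406). The call of ssc-miR-145-3p was also lost without BF-8d replicate 2 (adjusted p 0.103), IMF-8d replicate 1 (adjusted p 0.143) or IMF-8d replicate 2 (adjusted p 0.0939). Without BF-8d replicate 2, ssc-miR-143-5p passed at 0.74 (adjusted p 0.0318).

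**Figure D4:**
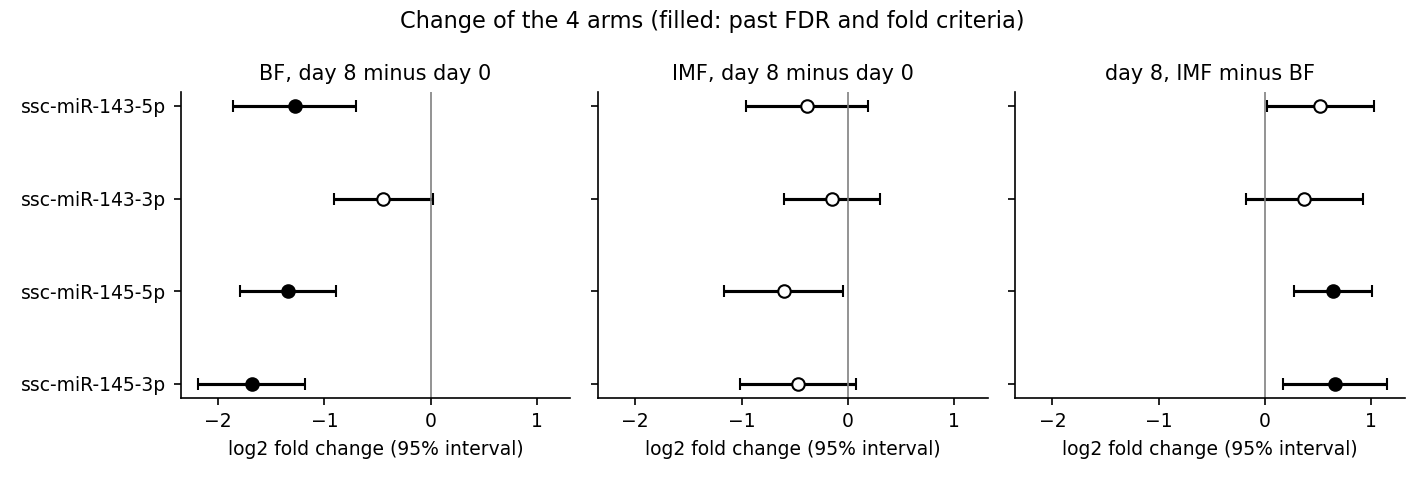
Log2 fold change of each arm (horizontal axes, points with 95% intervals from limma) for BF day 8 minus day 0, IMF day 8 minus day 0 and day 8 IMF minus BF. Filled points passed the FDR and fold criteria: 3 arms in BF (-1.68 to -1.28), none in IMF, and both miR-145 arms on day 8 (0.64 and 0.66).

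Averaged over the 4 days, no arm differed between sources by the criteria, while 31.6% of all entries did. The log2 values, IMF minus BF, were 0.14 for ssc-miR-143-3p, 0.12 for ssc-miR-143-5p, 0.11 for ssc-miR-145-5p and 0.05 for ssc-miR-145-3p, with adjusted p from 0.181 to 0.726. The count was 0 of 4 by limma, edgeR and DESeq2, with 0 at an unadjusted p under 0.05 in limma. For ssc-miR-143-3p the 95% interval ran from -0.04 to 0.33.

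Whether the time course differed between BF and IMF was tested over all 24 libraries. limma's F test for an interaction between source and day passed for ssc-miR-145-3p (adjusted p 0.0389) and not for ssc-miR-145-5p (adjusted p 0.223), ssc-miR-143-5p (adjusted p 0.380) or ssc-miR-143-3p (adjusted p 0.657). It passed for 31.6% of all entries. The change from day 0 to day 8 was less negative in IMF than in BF by 1.21 log2 units for ssc-miR-145-3p (95% interval 0.54 to 1.88, adjusted p 0.00954), a contrast that passed with its fold criterion for 20.7% of all entries. For ssc-miR-145-5p, called in BF and not in IMF, the same difference was 0.74 (95% interval 0.03 to 1.44, adjusted p 0.131), so its 2 time courses were not shown to differ. The interaction of ssc-miR-145-3p was lost when any of 7 libraries was left out (BF-0d replicate 1, BF-8d replicates 1 and 2, IMF-0d replicates 1 and 2, and IMF-8d replicates 1 and 2), with adjusted p from 0.0523 to 0.105. It was also lost with no filter on low values (adjusted p 0.105).

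The arms of 1 hairpin were next compared with each other, since the library total cancels in their ratio. For miR-143 the 3p arm had 519 to 2489 times the reads of the 5p arm, with a median of 1268 over the 24 libraries. For miR-145 the 5p arm had 16.0 to 39.1 times the reads of the 3p arm, with a median of 24.3. The major arm was thus the 3p arm of miR-143 and the 5p arm of miR-145, by reads. The 3 BF-0d libraries, at 16.0, 17.5 and 18.7, were the lowest in the 5p to 3p ratio of miR-145 apart from IMF-8d replicate 1 at 17.1.

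No change of arm ratio passed the test over the 59 hairpins with both arms tested. From BF-0d to BF-8d the log2 ratio of 5p to 3p changed by -0.84 for miR-143 (SE 0.36, adjusted p 0.0723) and by 0.34 for miR-145 (adjusted p 0.247), where 32.2% of hairpins were called. Without BF-0d replicate 2 the miR-143 value was -1.18 (adjusted p 0.0179). In IMF the changes were -0.23 and -0.13, and 5.08% of hairpins were called. Between the sources, averaged over days, they differed by -0.02 and 0.06, and 5.08% of hairpins were called.

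The ratio between the major arms, ssc-miR-143-3p over ssc-miR-145-5p, shows how far both hairpins of the locus moved together. In BF it was 39.7, 72.6 and 56.2 on day 0, 85.5, 69.6 and 73.3 on day 2, 51.6, 40.0 and 62.5 on day 4 and 166, 92.6 and 68.4 on day 8. In IMF it was 48.9, 102 and 46.4 on day 0, 100, 75.7 and 73.3 on day 2, 48.1, 58.9 and 55.8 on day 4 and 75.1, 75.1 and 106 on day 8. In both sources the days 2 and 8 means were above those of days 0 and 4, and BF-8d replicate 1 stood highest of all 24 libraries.

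These differences in the ratio did not pass an exact two-sided permutation test after adjustment over the 3 tests made. Between days in BF the exact p was 0.0494 over 369600 regroupings, which became 0.148 when adjusted. Between days in IMF the exact p was 0.193 (adjusted 0.290). Between sources the log2 ratio differed by 0.03 on average (exact permutation p 0.855 over 160000 regroupings within days). Leaving out BF-8d replicate 3 brought the adjusted exact permutation p in BF to 0.0247, and leaving out IMF-0d replicate 2 brought that in IMF to 0.0251.

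**Figure D5:**
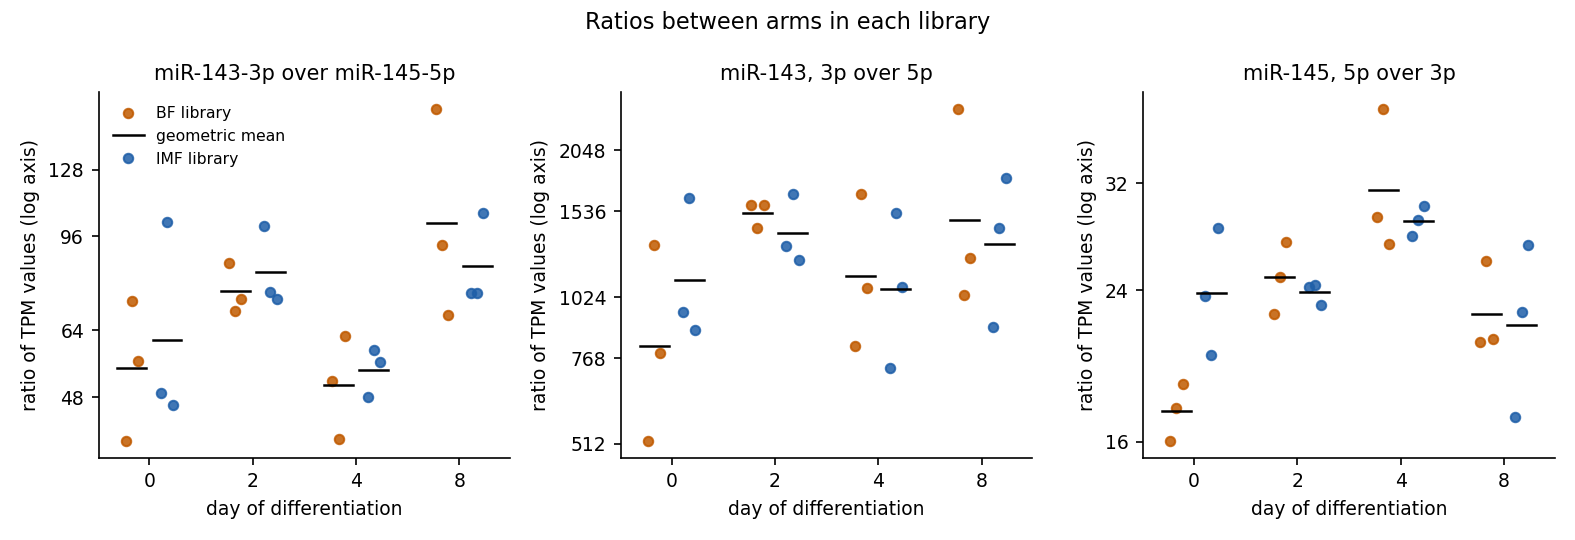
Ratio of TPM values in each library (vertical axes, log scale) by day for ssc-miR-143-3p over ssc-miR-145-5p (left), the 3p over the 5p arm of miR-143 (middle) and the 5p over the 3p arm of miR-145 (right), with BF in orange, IMF in blue and black lines for geometric means (n = 3). The left ratio runs from 39.7 to 166, the middle from 519 to 2489 and the right from 16.0 to 39.1.

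The likeness of the arms over the 8 group means is given as a description, since all values share libraries and totals. Pearson's r was 0.98 between the minor arms ssc-miR-143-5p and ssc-miR-145-3p, 0.86 between ssc-miR-143-5p and ssc-miR-145-5p and 0.85 between the arms of miR-145. It was 0.59 between the major arms and 0.63 between the arms of miR-143. Among the other 266 known miRNAs tested, those most like ssc-miR-143-3p were ssc-miR-1306-5p (r 0.93), ssc-miR-92b-3p (r 0.83) and ssc-miR-4334-3p (r 0.81). Those most like ssc-miR-145-5p were ssc-miR-190a (r 0.93), ssc-miR-21-5p (r 0.92) and ssc-miR-676-3p (r 0.89). Of these, ssc-miR-190a and ssc-miR-676-3p were low, at means of 3.85 and 3.48 TPM.

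Other miRNAs of fibroblasts, TGF-beta signalling and smooth muscle were set beside the cluster. All list and marker counts from here on used the TPM total. Taking it without ssc-miR-21-5p moved the other entries by a median of -0.57 in BF and -0.43 in IMF between days 0 and 8. It moved the day 8 differences, IMF minus BF, by a median of 0.16, and the lists were not counted again under it. Of 17 tested members of 18 listed, 10 rose and 3 fell from BF-0d to BF-8d, with a median log2 fold change of 0.83 against 0.15 for all entries, of which 42.8% were called. The largest rises were ssc-miR-29b, which represses collagen genes, from 18.1 to 190 TPM (3.37), and ssc-miR-221-5p from 229 to 1864 TPM (2.87). The falls were ssc-miR-214-5p (-0.78), ssc-miR-21-5p (-0.71) and ssc-miR-100 (-0.70). From IMF-0d to IMF-8d, 7 rose and none fell, with a median of 0.34 against 0.07 and 30.5% of all entries called, led by ssc-miR-146a-5p, a brake on inflammatory signalling, from 55.8 to 742 TPM (3.67). ssc-miR-199b-3p also rose there (1.08), but its values were within 1% of those of ssc-miR-199a-3p in every library. Counted as 1 entry, a choice made after the values were seen, they left 16 tested members, of which 9 rose and 3 fell in BF (median 0.74) and 6 rose in IMF (median 0.32). On day 8, 6 were lower in IMF and none higher, with a median of -0.54 against -0.28 and 37.2% of all entries called, and ssc-miR-221-5p (-1.95) and ssc-miR-29b (-1.70) differed most.

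The 12 tested of 14 miRNAs listed as promoters of adipocyte differentiation held 5 that rose and 1 that fell in BF between days 0 and 8, with a median of 0.41, where 42.8% of all entries were called. The largest rises were ssc-miR-210, the hypoxia-induced miRNA, from 17.8 to 498 TPM (4.71), and ssc-miR-148a-3p from 120728 to 303301 TPM (1.32). The fall was ssc-miR-21-5p. In IMF, where 30.5% of all entries were called, 5 rose and none fell, with a median of 0.40, namely ssc-miR-210 (1.90), ssc-miR-30a-5p (1.38), ssc-miR-26b-5p (0.84), ssc-miR-148a-3p (0.82) and ssc-miR-30d (0.75). On day 8, where 37.2% of all entries were called, 6 were lower in IMF, led by ssc-miR-30d (-1.19) and ssc-miR-210 (-0.94), with a median of -0.66.

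The 12 tested of 13 miRNAs listed as inhibitors held 4 that rose and 2 that fell in BF between days 0 and 8, with a median of 0.36, again beside 42.8% of all entries. The rises were led by ssc-miR-138 (2.87, from 1.25 to 15.2 TPM) and ssc-miR-222 (1.69). The falls were ssc-miR-27b-3p (-0.94) and ssc-miR-27a (-0.62), which target the adipogenic factor PPARG. In IMF ssc-miR-155-5p rose (0.87) and ssc-miR-130a fell (-0.81), with a median of 0.23 and 30.5% of all entries called. On day 8, 5 were lower in IMF: ssc-miR-138 (-3.44), ssc-miR-221-3p (-1.48), ssc-miR-222 (-1.32), ssc-miR-155-5p (-0.98) and ssc-let-7a (-0.61), with a median of -0.52 and 37.2% of all entries called. For ssc-miR-138 the IMF-8d level was 0.484 TPM, near the floor of 3 reads. Its mean was 9.26 TPM in BF and 0.220 TPM in IMF. It thus passed the filter on low values only through BF, and its day 8 difference is given as a description only.

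Markers of other cells moved in some of the same comparisons. The summed skeletal muscle markers were 819 to 1013 TPM in BF-0d, 1324 to 2362 in BF-8d, 910 to 1739 in IMF-0d and 982 to 1632 in IMF-8d, and of the 3 tested, ssc-miR-1 (0.91) and ssc-miR-133a-3p (1.43) rose in BF and ssc-miR-499-5p fell (-0.73). In IMF only ssc-miR-133a-3p of these was called (0.84). None of the 3 was called between the sources on day 8. Of all entries, 42.8% were called in BF and 30.5% in IMF between these days, and 37.2% between the sources on day 8. The endothelial markers, ssc-miR-126-3p and ssc-miR-126-5p, were both lower in IMF on day 8, with summed levels of 51.2 to 90.9 TPM in BF-8d and 24.6 to 34.8 TPM in IMF-8d. In BF, ssc-miR-126-5p rose from day 0 to day 8 (0.71). This entry was low, at a mean of 1.76 TPM in BF and 0.724 TPM in IMF, and passed the filter on low values through BF. The 1 blood marker tested, ssc-miR-486, which muscle also makes, averaged 2.43 TPM in BF-8d and 6.27 TPM in IMF-8d. From day 0 to day 8 it rose in BF (1.30) and IMF (2.01), from 0.384 and 0.834 TPM, near the floor of 3 reads. Its mean over all libraries reached 1 TPM only with IMF-8d, so its higher level there is given as a description only. The summed blood markers were 3.71 to 4.44 TPM in BF-8d and 6.68 to 8.08 TPM in IMF-8d. The part of these cells in the values of the miR-143 and miR-145 arms was not tested.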

How the data were processed

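Small RNA was sequenced by the authors as single-end reads. They removed adapters and low-quality reads, mapped the rest to Sscrofa11.1 without mismatches with Bowtie, filtered out tRNA, rRNA, snoRNA and snRNA, named known miRNAs by BLAST against miRBase and predicted others with miRDeep2. The deposited values are in RPM, called TPM by the authors: reads per 1000000 reads on the 1587 listed miRNAs of a library. Whole reads were recovered from the 38088 values (none further than 0.000569 from a whole number). The libraries' depth on miRNAs was 4954845 to 16863560 reads.

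Groups came from the sample titles. Entries averaging 1 TPM or more over all libraries were fitted with limma (trended eBayes) on log2(TPM + 1), using the libraries of the groups under comparison, with Benjamini-Hochberg adjustment over all 430 entries tested. Calls needed an FDR under 0.05 and a fold change above 1.5. Interactions, source averages and arm ratios were fitted over all 24 libraries. Ratios between major arms were compared by exact two-sided permutation tests. The alternatives were other pseudocounts, filters, scalings, a shared fit, edgeR and DESeq2 on whole reads, a replicate block, and dropping each library in turn. The deviations of libraries with the same replicate number correlated above 0.1 in every pair for 1 of 28 group pairs only, BF-0d with IMF-0d (0.188 to 0.509), where the blocked fit changed no call of a member. The members and lists were chosen with earlier results of these data known. Named beside the members are ssc-miR-21-5p, the 3 known entries most like each major arm and, from each list, all entries called where 5 or fewer were, otherwise the 2 largest rises and 2 largest falls; ssc-miR-100 was named outside this rule, after its values were seen. Mature and hairpin sequences were read from Sscrofa11.1 at RefSeq's positions. The mRNA libraries were not analysed here. R 4.3.3, limma 3.58.1, edgeR 4.0.16 and DESeq2 1.42.0 were used.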

Additional observations from a re-analysis of the deposited data

Results flagged for a closer look

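The time course of ssc-miR-145-3p differed between the sources by a test of the difference itself. Its source-by-day interaction had an adjusted p of 0.0389 (limma, moderated F test), a test that 31.6% of all entries passed. The interaction was lost when any of 7 libraries was left out (adjusted p up to 0.105) and with no filter on low values (adjusted p 0.105). The change of ssc-miR-145-3p from day 0 to day 8 was less negative in IMF than in BF by 1.21 log2 units. The level went from 86.0 to 25.6 TPM in BF and from 57.2 to 41.6 TPM in IMF between those days. IMF minus BF was -0.55 log2 units on day 0, where the libraries of the sources did not overlap but the test did not pass (adjusted p 0.158). It was 0.66 on day 8, where they overlapped and the test passed (adjusted p 0.0310), and that call was lost in 4 of the 6 fits that left out 1 library.

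A signal appeared on the strand opposite to MIR145, outside the comparisons above. The predicted entry novel_miR_853 has the mature sequence given here with its seed in capitals.

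novel_miR_853: aUUCCUGGgaaaacuggaccguga

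It lies at chr2:150580136-150580159 on the minus strand of Sscrofa11.1 and overlaps the other strand of ssc-miR-145-5p over 19 bases, with no overlap with ssc-miR-145-3p. It had 40 reads in the 24 libraries and none in 10 of them. Its highest count was 9 reads, in BF-4d replicate 2. The floor of 3 reads was passed in 4 libraries, all of them BF: that one, BF-2d replicate 2 with 4 reads, BF-8d replicate 1 with 7 and BF-8d replicate 3 with 5. These counts were too low for a test.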

How the results depend on the processing

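Apart from leaving out libraries, 485 of 518 results under another setting kept their side of the criteria. The sign turned in 19 of the 518, none of them called on either side. With no filter on low values, 3 calls were lost at the same log2 values: -1.28 for ssc-miR-143-5p between BF-0d and BF-8d, and 0.64 and 0.66 for ssc-miR-145-5p and ssc-miR-145-3p between BF-8d and IMF-8d. The interaction of ssc-miR-145-3p then had an adjusted p of 0.105, and this setting tests more entries. The total taken without ssc-miR-21-5p moved all other entries by a median of -0.57 in BF and -0.43 in IMF between days 0 and 8, and by -0.41 and -0.31 between days 4 and 8. Under that shift ssc-miR-143-3p was called in BF (-1.03) and IMF (-0.58) between days 0 and 8, and ssc-miR-145-5p in IMF (-1.04), and ssc-miR-145-3p in BF between days 4 and 8 (-1.12). In IMF ssc-miR-145-5p was also called at a mean of at least 10 TPM (-0.60), by edgeR (-0.75) and by DESeq2 (-0.75). Between BF-8d and IMF-8d, ssc-miR-143-5p was called with median-of-ratios scaling (0.84), edgeR (0.87) and DESeq2 (0.82), and ssc-miR-143-3p with DESeq2 (0.62). Median-of-ratios scaling moved the median log2 difference of all entries by 0.25 in that comparison and by -0.15 between BF-0d and BF-8d. For ssc-miR-145-5p the step from day 4 to day 8 was called with median-of-ratios scaling (-1.28 in BF, -0.74 in IMF), the total without ssc-miR-21-5p (-1.62, -0.88), edgeR (-1.27, -0.78) and DESeq2 (-1.26, -0.79). The cause of these changes was not tested.

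Leaving out 1 library at a time, 650 of 672 values stayed on their side of the criteria. The ranges were -0.66 to -0.26 for ssc-miR-143-3p between BF-0d and BF-8d, and -0.86 to -0.40 for ssc-miR-145-5p between IMF-0d and IMF-8d. Between BF-8d and IMF-8d they were 0.32 to 0.74 for ssc-miR-143-5p, 0.18 to 0.59 for ssc-miR-143-3p, 0.50 to 0.74 for ssc-miR-145-5p and 0.48 to 0.87 for ssc-miR-145-3p. The adjusted p of the ssc-miR-145-3p interaction ran from 0.0162 to 0.105. The miR-143 arm ratio between BF-0d and BF-8d ran from -1.18 to -0.46. The adjusted exact permutation p of the major arm ratio between days ran from 0.0247 to 0.290 in BF and from 0.0251 to 0.523 in IMF.

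The labels do not say whether a replicate number marks the same piglet across groups. Of the 24 libraries, 9 had their highest mean correlation with the libraries of their own number in the other groups. With 3 numbers to choose from, this did not settle whether libraries are paired. With the replicate block none of 63 results changed its call. The blocked adjusted p was 1.42e-06 for ssc-miR-145-5p between BF-0d and BF-8d and 0.0422 for the interaction of ssc-miR-145-3p, and the paired comparison of the log2 major arm ratio between sources gave a difference of 0.03 with an exact permutation p of 0.844. With 3 libraries a group, differences within the spread between libraries could not be shown, while depth did not limit any member.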
